A study of Mnemiopsis leidyi with 31 samples.

Results

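The comparison sets 3 libraries of embryos at 3 hours post fertilization (hpf) against 3 libraries at 1 hpf, 6 of the 31 RNA-seq libraries of an hourly series of the ctenophore (comb jelly) Mnemiopsis leidyi. The libraries were chosen by the hour in their labels: 2012_N5, 2013_23 and 2013_33 at 3 hpf, and 2012_N7, 2013_21 and 2013_41 at 1 hpf. Both groups were whole embryos of wild-caught animals, pooled at 100 to 200 per stage, and the labels name neither a strain nor a treatment. No label says whether libraries with like codes came from the same spawning, so p-values measure only the spread between these libraries. The question was which transcripts first appear, and which begin to leave, over the earliest hours of development.

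An early animal embryo runs on messenger RNA that the mother stored in the egg. Its own genome is switched on during cleavage, and the stored messages are removed over the same period or later, an exchange called the maternal-to-zygotic transition. The first zygotic transcripts are usually few, and in the fly Drosophila melanogaster they come largely from short genes. Poly(A) selection was used here, so more molecules of a message and longer poly(A) tails on the same molecules cannot be told apart, and neither can more cells and more RNA per cell. The counts record the level of a transcript, not its synthesis. Transcripts absent at 1 hpf and present at 3 hpf are therefore called appearing transcripts.

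The count table listed 31067 transcript records under numbered identifiers with a length in bases. The deposited files do not pair these identifiers with gene names, and 0 of 31067 were found in the gene name table of assembly crg_Mlei_v2, so transcripts are given by identifier and length only. Total counts were 61827837, 21244028 and 21893223 in the 3 hpf libraries 2012_N5, 2013_23 and 2013_33, and 84494309, 36175510 and 38839655 in the 1 hpf libraries 2012_N7, 2013_21 and 2013_41. The 1 hpf column 2012_N7 was below the 9 hpf column 2012_37 in 0 records, and the smaller column amounted to 83.7% of the larger. The 9 hpf counts were therefore subtracted record by record, which left 13782249 counts in 16062 records for 2012_N7. That difference is used as its value throughout, and results are also given without this library. Levels are in CPM, a count relative to its library's total multiplied by a TMM scaling factor.

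Most stored transcripts differed by less than 2-fold between the hours. At 1 hpf, 6073 transcripts were at 10 CPM or more in every library, and 5911 of these were also at 10 CPM or more in every 3 hpf library. These 6073 maternal transcripts took 95.5% to 97.2% of counts at 3 hpf and 97.2% to 98.5% at 1 hpf. The ratio of their 3 hpf mean to their 1 hpf mean was within 2-fold for 95.3% of them. A ratio of 2-fold or more downward was seen for 227 and upward for 57, and 4-fold or more downward for 3 and upward for 0. Of the 227 and the 57, the hours did not overlap for 97 and 23 of the 6073. Over all 10974 transcripts tested, no overlap and a fitted change of 2-fold or more held for 145 lower (1.32%) and 176 higher (1.6%). The 6073 had been taken for high values at 1 hpf, which by itself favours lower values at 3 hpf. Of the 6073, 6072 were still detected at 1 CPM or more in every 3 hpf library. These are shares of each library and do not give the amount of message per embryo.

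Across all transcripts, edgeR's quasi-likelihood test found 1 of 10974 tested higher at 3 hpf (0.00911% called) and 0 lower (0% called) at an adjusted p under 0.05. Before adjustment, p was under 0.05 for 209 higher (1.9%) and 429 lower (3.91%). Together these were 5.81% of the 10974 tested, close to the share of 0.05 expected where nothing changes. Groups that did not overlap, with a change of 2-fold or more, were found for 176 higher (1.6%) and 145 lower (1.32%). Without 1 hpf 2012_N7 the test called 0 higher and 0 lower of 11574, with p under 0.05 before adjustment for 310 and 386. Leaving out 3 hpf 2012_N5, it called 49 of 11422 higher (0.429%) and 0 lower, and without any other single library 0. DESeq2 called 92 of 14142 higher (0.651%) and 5 lower. Each library held, at 1 CPM or above, 10049 ± 424 transcripts at 3 hpf and 9587 ± 423 at 1 hpf (SD, n = 3 each; exact permutation test, two-sided, p = 0.3, where the smallest possible is 0.1).

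The called transcript was Mle_000062 (766 bases). It stood at 14.05, 20.7 and 14.1 CPM in the 3 hpf libraries 2012_N5, 2013_23 and 2013_33, from 744, 404 and 313 counts. In the 1 hpf libraries 2012_N7, 2013_21 and 2013_41 it had 0, 2 and 0 counts, where 3 counts would be 0.263, 0.0908 and 0.116 CPM. The 3 hpf libraries lay close together and far above every 1 hpf library. Pooled and scaled counts were 542-fold higher at 3 hpf (95% counting interval 149.8 to 4482, for counting error only), and the fitted log2 fold change was 9.03 (SE 0.97, adjusted p = 0.0466, edgeR). Its adjusted p was 0.504 without 1 hpf 2012_N7 and lay between 0.0094 and 0.532 without each library in turn (edgeR). It was already at 9.11, 36.6, 24.9 and 9.70 CPM in the 2 hpf libraries 2013_22, 2013_32, 2013_42 and 2012_N6, none of which entered the fit. At 4 and 5 hpf it stood between 11.9 and 48.6 CPM in the 6 libraries, and at 8 hpf between 1.57 and 10.2 CPM in the 5.

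A set of 20 transcripts, 0.0644% of the 31067, appeared between the hours. The rule took records under 1 CPM in every 1 hpf library and at 1 CPM or more in every 3 hpf library, with the lowest 3 hpf value at least 3 times the highest 1 hpf value. No record, 0 of 31067 (0%), met the mirror of this rule and left. The member nearest the limit had a lowest 3 hpf value of 1.64 CPM and a highest 1 hpf value of 0.525 CPM, a ratio of 3.13. The nearest record outside had 1.13 and 0.484 CPM, a ratio of 2.34. Without the 3-fold gap 29 records appeared and 4 left. Because the values of these 6 libraries chose the set, its difference between the hours is a description and was not tested. Without 1 hpf 2012_N7 the rule gave 22 records, and 0 that left. Leaving out a library can only loosen the rule, so all 20 stay in by construction. Without 3 hpf 2012_N5 it gave 111, and 1 that left, and without 1 hpf 2013_21 it gave 71, and 11 that left.

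The appearing transcripts had means from 1.36 to 201 CPM at 3 hpf, and from 0.0202 to 0.454 CPM at 1 hpf. Their ratio of means had a median of 7.13 on the log2 scale, and a range of 2.99 to 9.66. Their median level was 2.52 CPM in 3 hpf 2012_N5, 20.8 CPM in 2013_23 and 10.5 CPM in 2013_33. In 1 hpf 2012_N7, 2013_21 and 2013_41 it was 0.175, 0.212 and 0.0387 CPM. The 3 hpf libraries thus differed among themselves: 2012_N5 had the lowest value for 17 of the 20, and 2013_23 the highest for 13. The 20 together took 0.00646%, 0.0537% and 0.106% of counts in 3 hpf 2012_N5, 2013_23 and 2013_33, and between 0.000108% and 0.000384% in the 1 hpf libraries.

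**Figure D1:**
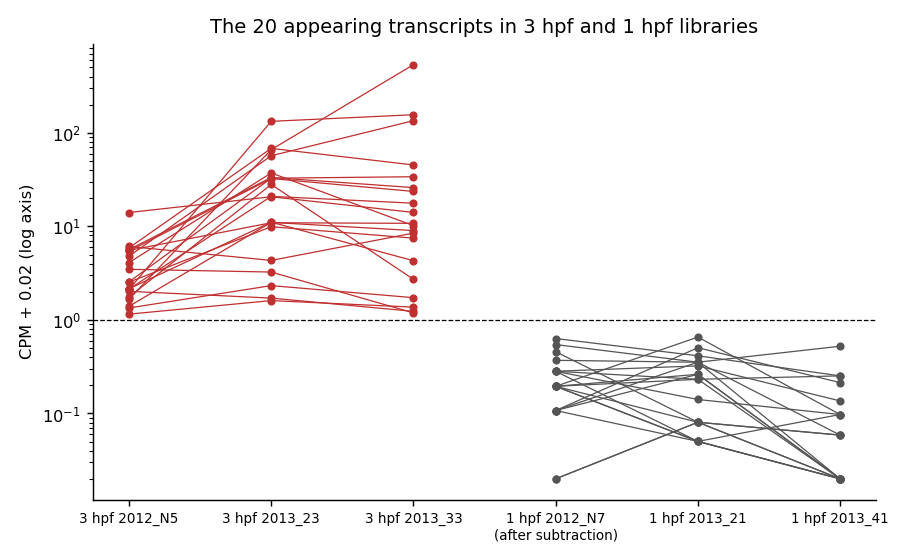
Level of each of the 20 appearing transcripts (CPM + 0.02, log axis) in the 3 libraries of 3 hpf (red) and the 3 of 1 hpf (grey), with a line joining the values of 1 transcript within an hour and a dashed line at 1 CPM. All red points lie above the dashed line and all grey points below it, as the rule requires, and 17 of the 20 are lowest at 3 hpf in 2012_N5.

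The member with the highest mean was Mle_010150 (736 bases). It stood at 1.64, 66.1 and 535 CPM in 3 hpf 2012_N5, 2013_23 and 2013_33, and at 0.525, 0.333 and 0.503 CPM in 1 hpf 2012_N7, 2013_21 and 2013_41. The 3 hpf libraries spread widely, with 2013_33, which carries the mean, far above 2012_N5, but did not overlap those of 1 hpf. Means were 201 ± 291 CPM at 3 hpf and 0.454 ± 0.105 CPM at 1 hpf (SD, n = 3 each), and its fitted log2 fold change of 8.82 (SE 1.79) did not pass (adjusted p = 0.309, edgeR). It passed with the code series as a term (adjusted p = 4.65e-18), without 3 hpf 2012_N5 (0.00373), with libraries of 2013 only (0.0422), with no filter (2.48e-59) and in DESeq2 (4.78e-05), and missed the threshold in the other 13 alternatives. By its mean on the scale per length it was ranked 288 of 31067 at 3 hpf, against 10037 at 1 hpf. At 6 hpf it stood at 2287, 374, 500.2 and 856 CPM in 2012_23, 2012_N2, 2013_26 and 2013_46. Its level was between 77.8 and 389 CPM in the 5 libraries of 8 hpf, and 92.6 and 30.1 CPM in 9 hpf 2012_37 and 2013_49.

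The next was Mle_001070 (1292 bases), at 2.10, 133 and 156 CPM in 3 hpf 2012_N5, 2013_23 and 2013_33 and at 0.0875, 0.333 and 0.0387 CPM in 1 hpf 2012_N7, 2013_21 and 2013_41. Both 3 hpf libraries of 2013 were high and the library of 2012 low, again with no overlap between the hours. Its fitted log2 fold change was 9.10 (SE 1.56, adjusted p = 0.215, edgeR). It passed under the same 5 settings and with a term for code year, at adjusted p between 2.57e-47 and 0.0346. The libraries coded 2013_21 to 2013_28, whose last digit is the hour, are called series 2013_2. There, from 1 to 8 hpf, it had 0.333, 10.5, 133, 218, 203, 73.8, 52.0 and 56.6 CPM, with 1 library per hour and no test, so the highest level stood at 4 hpf.

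**Figure D2:**
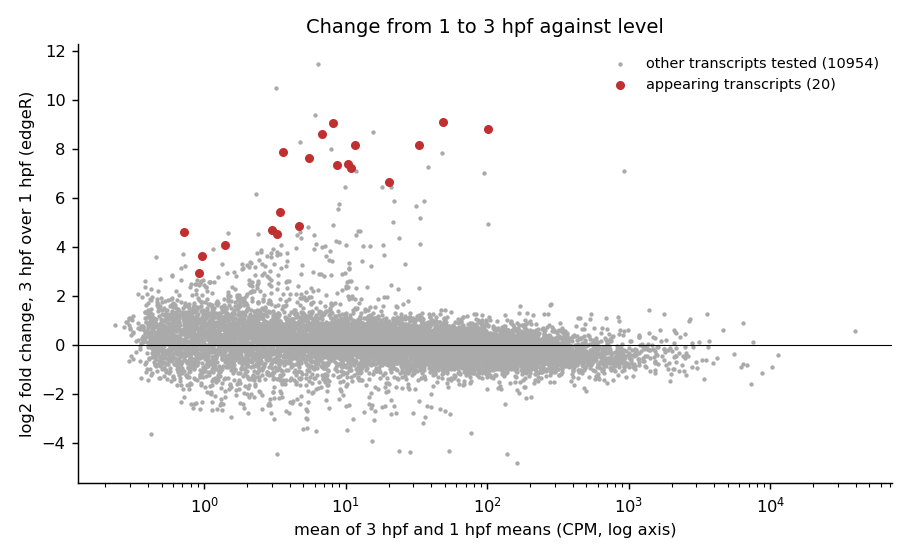
Fitted log2 fold change of 3 over 1 hpf (vertical axis, edgeR) against the average of both hourly means (CPM, log axis) for the 10974 transcripts tested, with the 20 appearing transcripts in red. The red points lie between 2.95 and 9.10, above a cloud centred at a median of 0.01, and some other transcripts (grey) lie higher still.

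The appearing transcripts were shorter than most transcripts detected at 3 hpf, but not than the records as a whole. Their lengths ran from 517 to 2897 bases with a median of 962, against a median of 2087 for the 10363 records with a mean of 1 CPM or more at 3 hpf and 1078 for all 31067 records. The upper quartile of the appearing set, 1265 bases, lay below the lower quartile of the 10363, 1363.5 bases. Both quartiles of the set, 758.5 and 1265 bases, lay within those of all 31067 records, 581 and 1978 bases. Length was not part of the rule, though CPM does not correct for it, and a longer record collects more reads from the same number of molecules. This difference was not tested.

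Of transcripts lower at 3 hpf, at a mean of 10 CPM or more and with no overlap, Mle_001956 (797 bases) had the smallest p. It stood at 36.0, 43.1 and 34.9 CPM in 3 hpf 2012_N5, 2013_23 and 2013_33, and at 106, 102 and 127 CPM in 1 hpf 2012_N7, 2013_21 and 2013_41. The libraries of each hour were close to each other and far from those of the other hour. Its log2 fold change was -1.56 (SE 0.28), which did not pass after adjustment (adjusted p = 0.226, edgeR). It passed with the code series as a term (adjusted p = 0.0270), with no filter (0.00392) and in DESeq2 (0.0118), and in none of the other 15 alternatives. The 2 hpf libraries, not used in the fit, had 55.5, 42.3, 47.3 and 18.6 CPM in 2012_N6, 2013_22, 2013_32 and 2013_42, all below every 1 hpf library. Mle_001956 had been picked for 1 hpf values above those of 3 hpf, which by itself favours lower values elsewhere.

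The next was Mle_012072 (1058 bases), at 17.2, 15.4 and 15.0 CPM in 3 hpf 2012_N5, 2013_23 and 2013_33 and at 62.9, 30.3 and 97.4 CPM in 1 hpf 2012_N7, 2013_21 and 2013_41. Here the 3 hpf libraries were alike and the 1 hpf libraries spread widely. Pooled and scaled counts gave a ratio of 0.270 (95% counting interval 0.255 to 0.287), and the difference did not pass (adjusted p = 0.469, edgeR). It passed with no filter (adjusted p = 0.00091) and in DESeq2 (0.0109), while with the code series as a term the adjusted p was 0.0902. It stayed between 7.27 and 42.4 CPM in all 25 libraries of other hours, so it remained present at every hour.

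Library by library, gains outnumbered losses in most pairings. Transcripts under 1 CPM in a 1 hpf library and at 5 CPM or more in a 3 hpf library numbered from 32 to 399 over the 9 pairs, and losses by the mirror of this rule from 1 to 271. In the pair 2013_23 over 2013_21, which share a code series, 60 were gained and 1 was lost. In 2012_N5 over 2012_N7, also of a shared code series, 32 were gained and 22 lost. Losses exceeded gains in 1 of the 9 pairs, 2013_23 over 2012_N7, with 132 gained and 271 lost. Libraries of the same hour also differed: 2013_33 had 252 transcripts at 5 CPM or more that were under 1 CPM in 2013_23, and 55 stood the other way. At 1 hpf, 2012_N7 had 248 that were under 1 CPM in 2013_21, and 60 stood the other way. Such an imbalance was thus also seen with no difference in hour. The 9 pairs reuse the same 6 libraries and are not independent.

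**Figure D3:**
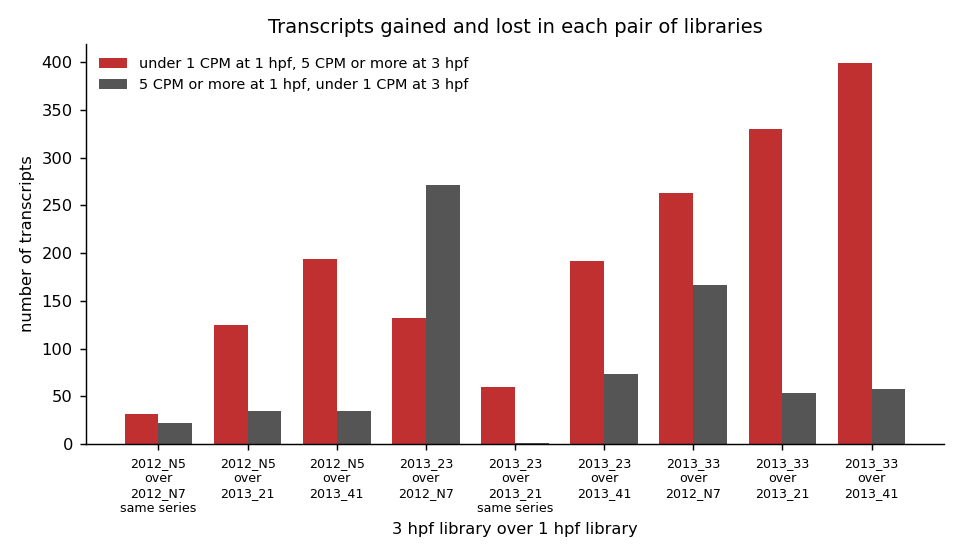
Number of transcripts gained (red, under 1 CPM in the 1 hpf library and at 5 CPM or more in the 3 hpf library) and lost (grey, the opposite) in each of the 9 pairs of a 3 hpf with a 1 hpf library. Gains run from 32 to 399, and the pair 2013_23 over 2013_21 has 60 gains beside 1 loss.

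Similarity between the 6 libraries did not follow the hour. Across all 31067 transcripts on the log2(CPM + 1) scale, 3 hpf 2013_23 and 1 hpf 2013_21 had a Pearson r of 0.994, the highest of the 15 pairs. The next was 3 hpf 2012_N5 with 1 hpf 2013_21, at 0.986, which share neither hour nor code series. By comparison, r was 0.982 for 2013_23 with 2012_N5, 0.972 for 2013_23 with 2013_33 and 0.975 for 2013_21 with 2013_41, pairs of the same hour. The subtracted 1 hpf 2012_N7 was closest to 3 hpf 2012_N5, at 0.980. By Spearman rank correlation both within-series pairs were highest, 0.911 for 2012_N5 with 2012_N7 and 0.903 for 2013_23 with 2013_21. The pair 2012_N5 with 2013_21 followed at 0.894. These are values over transcripts that share each library's depth and are not independent replicates. With the code series as a term, which leaves the hour to both within-series pairs and 1 residual degree of freedom, edgeR called 58 transcripts higher (0.529%) and 27 lower. The 58 hold 19 of the 20 appearing transcripts, which were chosen on these same libraries.

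The pair within code series 2013_2 was read on its own, with 1 library per hour and no replicate. Of 8111 transcripts at 5 CPM or more in either library, 97.6% were within 2-fold. By a rule of 4-fold or more, 5 CPM in the higher library and a 95% counting bound beyond 2-fold, 82 were up in 2013_23 (1.01%) and 7 down (0.0863%). Of the 82, 60 were under 1 CPM in 2013_21, 8 of them with 0 counts, and 15 belonged to the appearing set. The appearing rule used both libraries of this pair, so this overlap was favoured by the choice of the set. The median length of the 82 was 1188 bases, against 2166 for the 8111.

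With 1 count added where a library had 0, the largest ratio at 10 CPM or more was that of Mle_020004 (2224 bases), with 726 counts in 2013_23 (37.2 CPM) and 1 count in 2013_21 (0.0303 CPM). The ratio was 1229 (95% counting interval 219.9 to 48615). Mle_020864 (1226 bases) followed, with 547 counts in 2013_23 (28.03 CPM) and 1 in 2013_21 (0.0303 CPM), a ratio of 926 (166 to 36645). Of the 8 with 0 counts in 2013_21, 4 were at 10 CPM or more in 2013_23, and their ratios with 1 count added reached 540.1. Mle_020004 and Mle_020864 belong to the appearing set. In the other series both were lower at 3 hpf, at 4.08 and 1.74 CPM in 2012_N5. At 1 hpf both were higher there, at 0.263 and 0.175 CPM in 2012_N7. In that library 3 counts would be 0.263 CPM.

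At 10 CPM or more in the higher library, the lowest ratios in this pair were those of Mle_029760 (5285 bases) and Mle_025362 (558 bases). Mle_029760 had 1.28 CPM in 2013_23 and 10.4 CPM in 2013_21, a ratio of 0.123 (95% counting interval 0.0787 to 0.185). Mle_025362 had 29.4 CPM in 2013_23 and 174 CPM in 2013_21, a ratio of 0.169 (0.155 to 0.184). Neither was lower in the other series, where Mle_029760 stood at 47.04 CPM in 2012_N5 and 45.6 CPM in 2012_N7, and Mle_025362 at 416 CPM in 2012_N5 and 186 CPM in 2012_N7.

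The pair 2012_N5 over 2012_N7 shares no library with the pair that chose the 82. There 65 of the 82 (79.3%) were higher in 2012_N5, 51 of them by 2-fold or more (62.2% of the 82) and 7 lower by 2-fold or more, and the median log2 ratio was 1.505. These ratios had 0.1 CPM added, and many of the 82 were near the counting floor here. Their median was 0.175 CPM in 2012_N7, where 3 counts would be 0.263 CPM. In 2012_N5 the median was 0.755 CPM, with 37 of the 82 at 1 CPM or more. Of 8109 transcripts at 5 CPM or more in the 2013_2 pair and counted in the 2012_N pair, 64.0% were higher, 19.6% by 2-fold or more, with a median of 0.28. By the fold rule itself 276 of 8339 were up (3.31%) and 169 down (2.03%) in the 2012_N pair, and 16 transcripts were up and 0 down in both pairs. Transcripts within 2-fold made up 74.2% in the 2012_N pair, against 97.6% in the 2013_2 pair. The 7 that were down in 2013_23 had a median log2 ratio of 0.04 in the 2012_N pair.

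**Figure D4:**
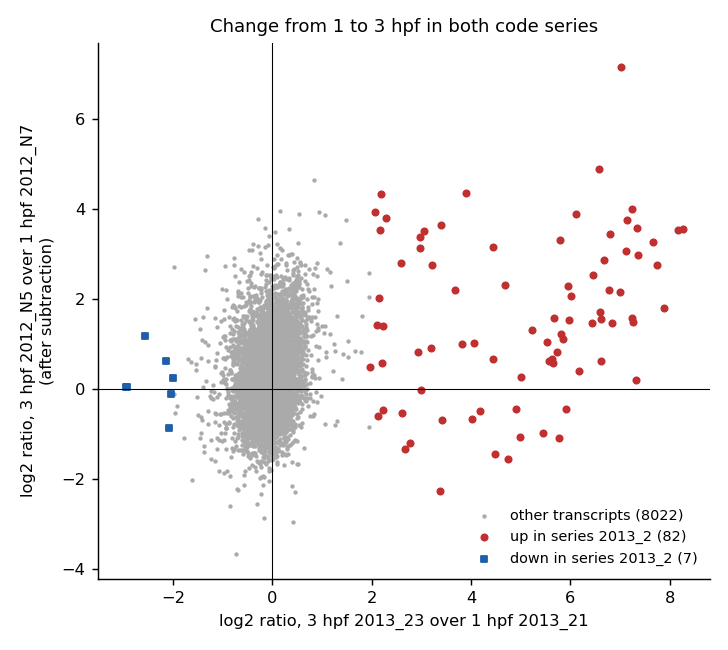
Log2 ratio of 3 over 1 hpf in code series 2012_N (vertical axis) against series 2013_2 (horizontal axis), each with 0.1 CPM added, for the 8111 transcripts at 5 CPM or more in either library of series 2013_2. Of the 82 transcripts up in series 2013_2 (red), 65 lie above 0 on the vertical axis, while the 7 down (blue squares) lie on both sides of it.

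The most abundant of the 82 at 3 hpf was a transcript of 1371 bases outside the appearing set, picked out after its values were seen and left without its identifier. It stood at 3.36, 150 and 5379 CPM in 3 hpf 2012_N5, 2013_23 and 2013_33, and at 7.88, 21.9 and 11.1 CPM in 1 hpf 2012_N7, 2013_21 and 2013_41. The hours overlapped, since 2012_N5 was below every 1 hpf library. In series 2013_2 its later levels, hour by hour through 8 hpf, were 1007, 3050, 6811, 7590 and 7189 CPM. Per length it was ranked 861 in 3 hpf 2013_23 and 12 in 2013_33, and 3 in 6 hpf 2013_26.

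The 3 hpf library 2013_33 held many transcripts that the other 5 libraries lacked. There were 125 at 5 CPM or more in 2013_33 and under 1 CPM in each of the others, while the same rule gave 2 for 2012_N5 and 2 for 2013_23 at 3 hpf, and 20, 0 and 11 for 2012_N7, 2013_21 and 2013_41 at 1 hpf. Libraries outside the comparison also differed in these 125, within an hour and within code series 2012_N. At 2 hpf, 111 of the 125 (88.8%) were at 1 CPM or more in 2013_32 and 109 in 2012_N6, but 0 in 2013_22 and 3 in 2013_42. At 4 hpf all 125 were at that level in 2013_34, 118 in 2012_N4 and 72 in 2013_24, and at 6 hpf between 114 and 120 in each library. For comparison, of the 20245 records under 1 CPM in every 1 hpf library, 18.9% were at 1 CPM or more in 2 hpf 2012_N6, 2.98% in 2013_32, 0.731% in 2013_22 and 0.692% in 2013_42.

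The appearing set was followed in the 25 libraries of other hours, which its rule did not use. At 2 hpf, 20 of 20 were above their highest 1 hpf value in 2012_N6, 2013_22 and 2013_32, and 18 in 2013_42. Median levels there were 2.86, 3.67, 22.3 and 2.34 CPM, so that 2013_32 alone was as high as the 3 hpf libraries of 2013. Members had been taken for low values at 1 hpf, which by itself favours higher values elsewhere. Among all 20245 records under 1 CPM at 1 hpf, 18.9%, 0.731%, 2.98% and 0.692% were at 1 CPM or more in these 2 hpf libraries, against 18, 17, 20 and 13 of the 20.

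Later, 11 of the 20 stood lower at 8 hpf than at 4 hpf by 2-fold or more. Their median was 13.1, 23.6 and 8.47 CPM in the 4 hpf libraries 2012_N4, 2013_24 and 2013_34, and between 16.8 and 32.1 CPM at 5 hpf. It was between 2.29 and 8.66 CPM at 8 hpf and 4.96 and 3.53 CPM at 9 hpf. With 0.1 CPM added to the mean of each hour, these 11 were lower by 2-fold or more and 0 of the 20 higher, with a median log2 ratio of -1.04. Of 13548 transcripts at a mean of 1 CPM or more at either hour, 1185 (8.75%) were lower by 2-fold or more and 3202 (23.6%) higher, with a median of -0.02. For 6 of the 20 the 8 hpf libraries all lay below those of 4 hpf, and for 0 all above, while over the 13548 this held for 1504 (11.1%) and 1128 (8.33%). Members had been taken for presence at 3 hpf, in libraries of the same code series as those of 4 hpf. This by itself may favour higher values at 4 than at 8 hpf. In series 2013_2, the hour of the highest level was 3 hpf for 8 of the 20 and 4 hpf for 6. It was 5 hpf for 1, 6 hpf for 3 and 7 hpf for 2. The appearing rule used 3 hpf 2013_23 and 1 hpf 2013_21 of this series. A peak at 3 hpf was therefore favoured by the choice of the set, and a peak at 1 hpf was not possible.

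**Figure D5:**
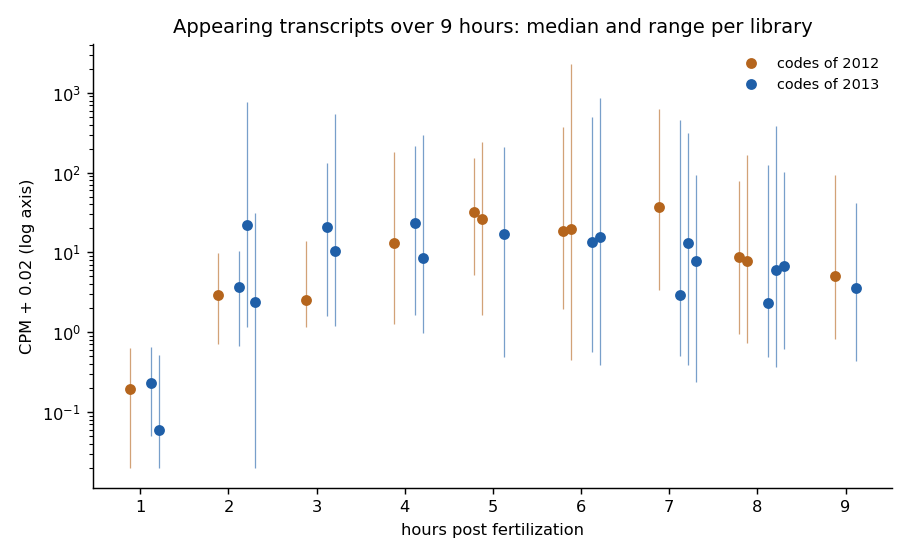
Median (point) and range (line) of the 20 appearing transcripts in each of the 31 libraries (CPM + 0.02, log axis) by hours post fertilization, in brown for codes of 2012 and in blue for codes of 2013. The medians lie under 0.3 CPM at 1 hpf, between 2.34 and 22.3 CPM at 2 hpf, and between 2.29 and 8.66 CPM at 8 hpf.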

How the data were processed

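The authors deposited read counts per transcript record and RPKM values for 31 libraries of polyadenylated RNA. Bowtie2 and SAMtools were used, per the submitters' processing notes; the sources used here name no reference or counter, so counts of near-identical records are uncertain. The authors' RPKM values were computed with 1 common total (all 717940 values above 0 imply 1413671828, the sum of all counts) and were not used. For limma, RPKM was recomputed from the counts per library total. Ranks used the TMM-scaled CPM divided by length. The files hold no other columns of samples.

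The 9 hpf column 2012_37 was subtracted from 1 hpf 2012_N7, and 5 hpf 2012_14 from 4 hpf 2012_N4. TMM factors came from all 31 libraries. The 6 libraries were filtered with filterByExpr and fitted with edgeR 4.0.16 in R 4.3.3 (quasi-likelihood test, hour as factor, Benjamini-Hochberg adjustment, threshold 0.05, two-sided). SE is |log2 fold change|/√F. The common biological coefficient of variation was 0.563. DESeq2 1.42.0, limma 3.58.1, other scalings, filters and terms, and leaving out each library were alternatives.

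Of transcripts with a mean of 10 CPM or more in the higher hour and no overlap, up to 2 per direction were named: the largest fold past the threshold or, where none passed, the smallest p. For the appearing set the 2 highest means were named, and for the pair the 2 largest ratios in each direction at 10 CPM or more. The comparison, the subtraction and the rules were chosen with earlier results of these data known. Libraries carry no molecular identifiers, so counting intervals cover counting error only. The title of 3 hpf 2013_23 gives another code than its description, which names the column and was used.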

Additional observations from a re-analysis of the deposited data

Results flagged for a closer look

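Of 40 groups of 4 or 5 libraries, 8 had a library set apart from the rest. The groups covered 10 values (the named transcripts and the median of the appearing set) at 2, 6, 7 and 8 hpf. A chance rate of about 1 in 20 would hold only for independent, normally spread values. These groups share libraries, and 8 of 40 was not tested against chance. At 2 hpf, 2013_32 stood apart for the appearing median (22.3 CPM against 2.34 to 3.67 in the others), for Mle_010150 (764 CPM against 0.867 to 5.79), for Mle_001070 (249 CPM against 2.08 to 10.5) and for Mle_020004 (28.8 CPM against 2.20 to 3.95). Mle_012072 stood apart in 2 hpf 2013_42 (42.4 CPM against 15.7 to 17.99). Mle_001956 stood apart in 6 hpf 2013_26 (83.2 CPM against 30.5 to 38.01) and Mle_029760 in 6 hpf 2012_N2 (561 CPM against 5.52 to 7.16). Mle_010150 stood apart in 8 hpf 2013_28 (389 CPM against 77.8 to 165).

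Mle_029760 and Mle_025362 had the lowest ratios of the pair 2013_23 over 2013_21 at 10 CPM or more in the higher library. Both were on the other side of 0, on the log2 scale, in the pair 2012_N5 over 2012_N7. The log2 ratio of Mle_029760 was -3.02 in the first pair and 0.04 in the second, and that of Mle_025362 was -2.57 and 1.16. With 1 library per hour in each series this difference was not tested.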

How the results depend on the processing

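The count of calls turned on settings. Against 1 transcript higher at 3 hpf (0.00911% of those tested), edgeR called 0 with RLE factors and with library totals alone. It also called 0 with 1 hpf 2012_N7 as deposited, and with TMM factors of the 6 libraries alone (chosen after seeing the data). It called 3 with the code year as a term (0.0273%), 18 with libraries of 2013 only (0.163%) and 19 with all 31 libraries (0.0851%). The code series as a term gave 58 (0.529%), no filter 272 (1.07%) and DESeq2 92 (0.651%). Limma called 1 at either pseudocount. Leaving out each library gave 0 to 49. Against 0 lower, the code series term gave 27 of 10974, no filter 139 of 25340 and DESeq2 5 of 14142, and other settings 0. The median log2 fold change of all transcripts, 0.01, was 0.21 under library totals alone. Of the 20 appearing transcripts, 19 were also found with library totals alone, 17 (of 25 found) at a line of 0.5 CPM and 13 (of 14) at 2 CPM. The appearing rule gave 0 with 2012_N7 as deposited, which contains a 9 hpf column, and 21 to 111 without each library (111 without 3 hpf 2012_N5, 71 without 1 hpf 2013_21). The leaving rule gave 4 without the gap, 0 to 11 without each library (11 without 1 hpf 2013_21, 1 without 3 hpf 2012_N5) and 0 elsewhere. The difference in transcripts at 1 CPM or more, 462 higher at 3 hpf, was -384 with 2012_N7 as deposited. The 7 transcripts down in the pair 2013_23 over 2013_21 were 4 at 10 CPM and 45 at 2-fold. The causes were not tested. The code series term pairs 2012_N5 with 2012_N7 and 2013_23 with 2013_21, with 1 residual degree of freedom, and no label says that a code series marks a shared spawning.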
